A study of Mus musculus with 2 samples.

Results

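The genes described here are 3 neuregulins and 3 receptors of the ErbB family, *Nrg1*, *Nrg2*, *Nrg3*, *Egfr*, *Erbb3* and *Erbb4*, taken by symbol from the 32285 genes counted in hippocampal nuclei. Each library was made from hippocampi of 5 pooled male mice aged 9 months, and there was 1 library per genotype. PS19 mice (PS19+/- Zbp1+/+) carry a transgene for mutant human tau driven by the mouse prion promoter. PZKO mice (PS19+/- Zbp1-/-) carry the same transgene and lack *Zbp1*, the gene of a sensor of Z-form nucleic acids that can start inflammatory cell death, in all cells from birth. Both groups therefore carry the tau transgene, and no mouse without it was sequenced. The question put to these genes was which hippocampal cell types hold each ligand and receptor, and whether those levels differed between PS19 and PZKO.

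Neuregulins are growth factors with an EGF-like domain that are made as membrane-bound precursors, released or exposed by proteases and sensed by ErbB receptor tyrosine kinases on neighbouring cells. NRG1 and NRG2 bind ErbB3 and ErbB4, and NRG3 binds ErbB4. ErbB3 has little kinase activity of its own and signals in pairs with another family member, commonly ErbB2, while EGFR binds EGF, TGF-alpha and related ligands but not neuregulins. In the forebrain, neuregulin signals to ErbB4 on interneurons are known for shaping excitatory synapses onto those cells, and neuregulin signals to ErbB3 and ErbB4 are known from the oligodendrocyte lineage.

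Filtering left 9590 nuclei from PS19 and 9307 from PZKO, where the median nucleus held 5822 and 9001 unique molecular identifiers (UMIs). Nuclei were clustered and each cluster was named from marker genes, so that every class name below means nuclei resembling that cell type. In all, 20 classes had at least 50 nuclei in each library, 11 of neurons and 9 of other cells. The tissue was labelled hippocampus, and clusters with markers of upper-layer cortical, corticothalamic and near-projecting neurons were present beside dentate granule, CA1 and CA3 cells. The targeted gene *Zbp1* had 95 UMIs in PS19 and 39 in PZKO. Its remaining PZKO counts were not mapped to the deleted part of the gene here. *Ttr*, a choroid plexus transcript that free RNA carries into other droplets, was lower in PZKO by 3.38 to 2.78 on the log2 scale in the 19 classes other than choroid plexus.

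Levels below are CPM of the class, the UMIs of a gene summed over the class and set to 1 common total of all genes, and a log2 ratio is PZKO over PS19 with an exact 95% binomial interval in brackets. These intervals cover counting error only, and with 1 library per genotype there was no replicate check and no test between genotypes. Pooled animals, genotype and library cannot be told apart. A ratio was counted as past the fold when it was at least 1.5-fold in either direction and rested on at least 100 UMIs. Nuclear 3′ counts depend on gene length and introns, so levels were compared between classes for 1 gene and never between genes.

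*Nrg1* lies on chromosome 8 of mm10 at 31814551 to 32884029 on the minus strand and spans 1069 kb. *Nrg2* lies on chromosome 18 at 36017652 to 36197380, minus strand. *Nrg3* lies on chromosome 14 at 38368952 to 39473088, minus strand, and spans 1104 kb. It overlaps *Nrg3os* and other annotated genes that together had 60330 UMIs beside 1104736 for *Nrg3*, so reads of these genes can be confused. *Egfr* lies on chromosome 11 at 16752203 to 16918158, plus strand, *Erbb3* on chromosome 10 at 128567523 to 128589652, minus strand, and *Erbb4* on chromosome 1 at 68032186 to 69108059, minus strand, over 1076 kb. *Erbb3* is the shortest of the 6 at 22.1 kb. The length matters because genes of at least 500 kb were slightly higher in PZKO as a group, with a median log2 ratio of 0.22 in oligodendrocytes, 0.23 in astrocytes, 0.33 in microglia, 0.14 in excitatory neurons and 0.17 in inhibitory neurons. Mural cells went the other way, with a median of -0.48 over 147 long genes. The part of gene length in the ratios of *Nrg1*, *Nrg3* and *Erbb4* was not tested.

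Most UMIs of the ligands lay in other classes than most UMIs of the receptors, but some classes held both. *Nrg1* and *Nrg3* were mainly neuronal, and excitatory nuclei held 89.97% and 91.1% of all *Nrg1* UMIs in PS19 and PZKO and 82.4% and 79.4% of all *Nrg3* UMIs. *Erbb4* had 70.3% and 76.9% of its UMIs in inhibitory neurons and 14.9% and 11.9% in oligodendrocytes. Classes with *Erbb4* also held ligand. *Nrg3* was between 3376 and 5860 CPM in the 4 interneuron classes and at 1323 and 1438 CPM in OPC (oligodendrocyte precursors). *Erbb3* UMIs came to 83.2% and 84.1% from oligodendrocytes, and *Egfr* UMIs came to 58.0% and 57.4% from astrocytes. Excitatory neurons also held most *Nrg2*, 66.7% and 60.9% of its UMIs, followed by inhibitory neurons with 15.1% and 20.3% and astrocytes with 9.95% and 7.68%. Of the UMIs of all genes, excitatory nuclei held 58587522 of 100521759 in PS19 and 92702009 of 151969789 in PZKO. Holding most UMIs was therefore not particular to *Nrg2*, whose levels by class are given below.

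**Figure D1:**
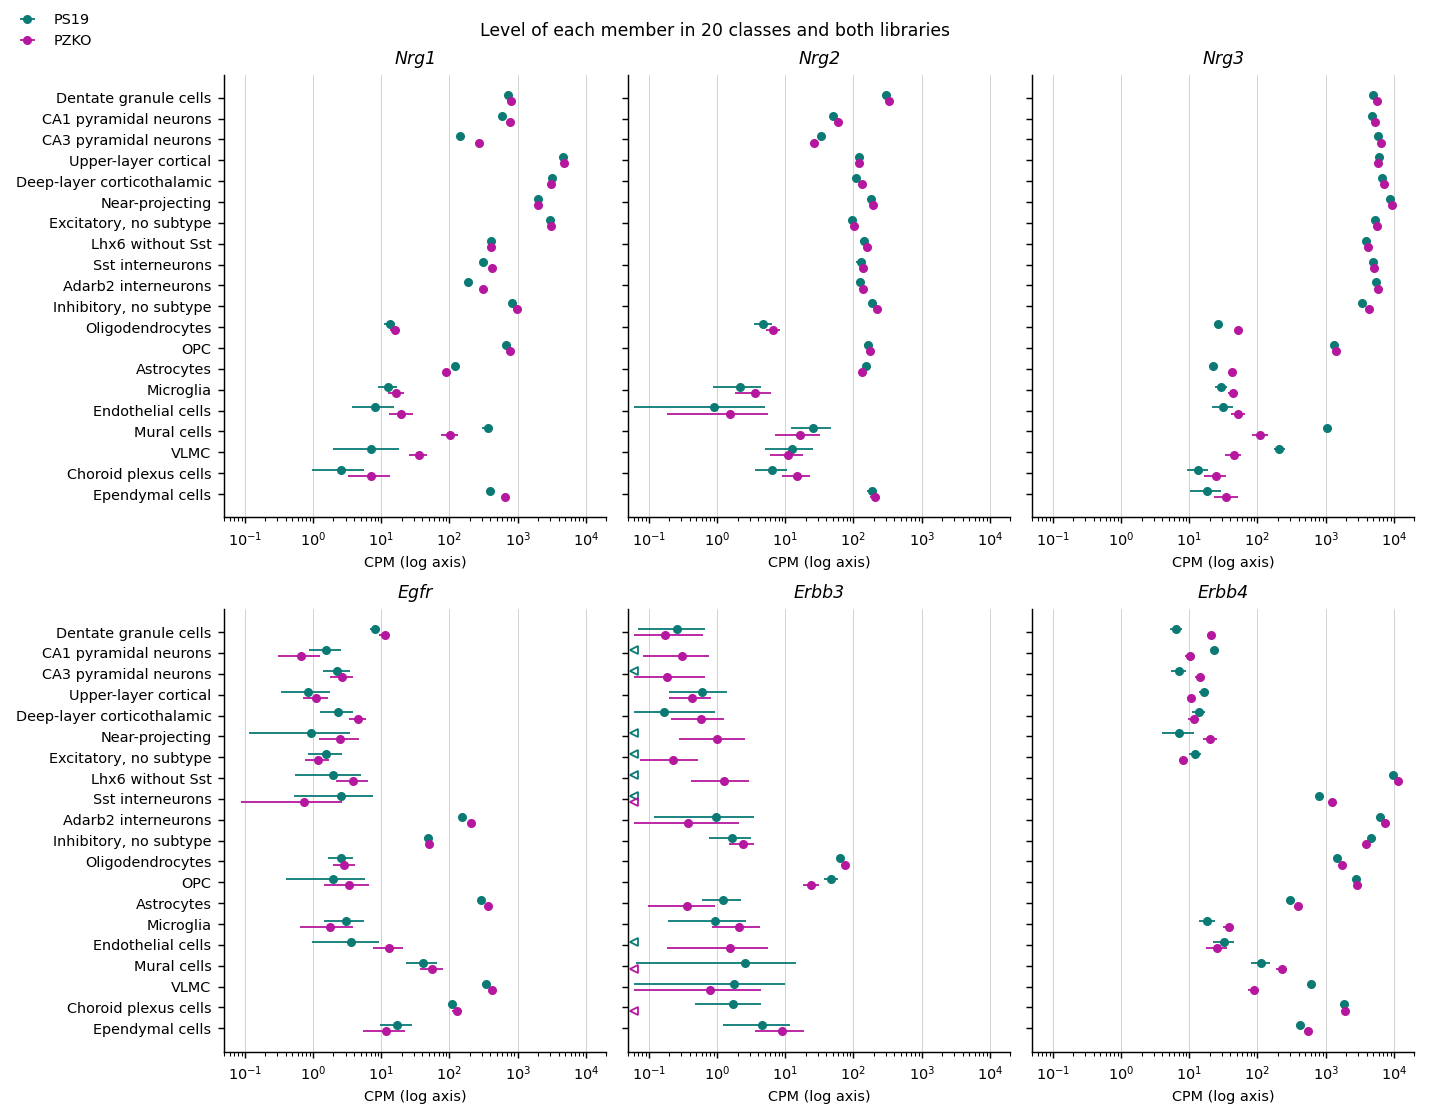
Level of each gene in CPM on a log axis, for 20 classes with at least 50 nuclei per library, in PS19 (green) and PZKO (magenta). Points are summed UMIs per class, lines are exact 95% Poisson intervals cut at the left edge of the axis, and open triangles mark a count of 0. *Erbb3* stands above the other classes in oligodendrocytes and OPC, and *Erbb4* spans from 6.35 CPM in dentate granule cells to 11611 CPM in Lhx6 interneurons.

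*Nrg1*, the neuregulin with the widest range of isoforms, was highest in upper-layer cortical neurons, at 4558 CPM in PS19 and 4729 CPM in PZKO (37301 and 97460 UMIs). The ratio in that class was 0.05 [0.04, 0.07]. Deep-layer corticothalamic neurons had 3192 and 3080 CPM and excitatory neurons with no assigned subtype 2950 and 3123 CPM, and the ranges of these neighbours in the order overlapped. Near-projecting neurons followed at 2000 and 1992 CPM. Inhibitory neurons with no assigned subtype, at 841 and 969 CPM, were followed by dentate granule cells, OPC and CA1 cells, and each of these ranges overlapped the next. In the *Nrg1* order, CA3 pyramidal neurons were the lowest class of neurons, with a mean 22.3-fold below upper-layer neurons, while oligodendrocytes and microglia were each 318-fold below.

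Within the hippocampus proper, CA3 cells had less *Nrg1* than dentate granule and CA1 cells, whose ranges overlapped. Dentate granule cells had 727 CPM in PS19 and 802 CPM in PZKO, with a ratio of 0.14 [0.10, 0.18]. CA1 cells had 590 and 761 CPM from 5737 and 10090 UMIs, a ratio of 0.37 [0.32, 0.42] that did not reach the fold and was -0.07 with the libraries clustered apart. CA3 cells had 143 and 273 CPM from 1258 and 2977 UMIs, a ratio of 0.94 [0.84, 1.03] past the fold. Among the 7 excitatory classes, CA3 was the class with a ratio past the fold for this ligand. The share of CA3 genes past the fold in either direction was 5.11%, against 3.80% in CA1 and 5.67% in dentate granule cells, where no ligand was past it.

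The CA3 value of *Nrg1* came from some of the nuclei. In PS19, 77 of 245 CA3 nuclei had a *Nrg1* UMI (31.4%), and in PZKO 119 of 208 nuclei (57.2%), or 10.2% and 18.3% after each nucleus was thinned to 1500 UMIs. The highest nucleus had 120 UMIs in PS19 and 317 in PZKO. The 5 nuclei with most *Nrg1* UMIs held 34.02% of the CA3 total in PS19 and 34.4% in PZKO, and without them the levels were 95.6 and 183 CPM, the same ratio of 0.94. Most CA3 nuclei of PS19 therefore had no *Nrg1* UMI, beside a few with many. The 13 alternatives ranged from 0.35 to 1.03, and 12 of them kept the ratio past the fold. Here and below, the alternatives on the minimum UMIs leave each single ratio unchanged, so they keep it by construction. The lowest ratio, 0.35, came from subtracting each library's own profile as an estimate of free RNA. The share subtracted from CA3 was 8.05% in PS19 and 12.9% in PZKO, and the part of free RNA in the ratio was not tested further. In the same nuclei the CA3 marker list had a ratio of -0.04 [-0.07, -0.01], the CA1 list 0.10 [0.04, 0.16], the dentate list 0.49 [0.40, 0.58] and the near-projecting list 0.73 [0.50, 0.97], whose part in the *Nrg1* ratio was not tested.

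**Figure D2:**
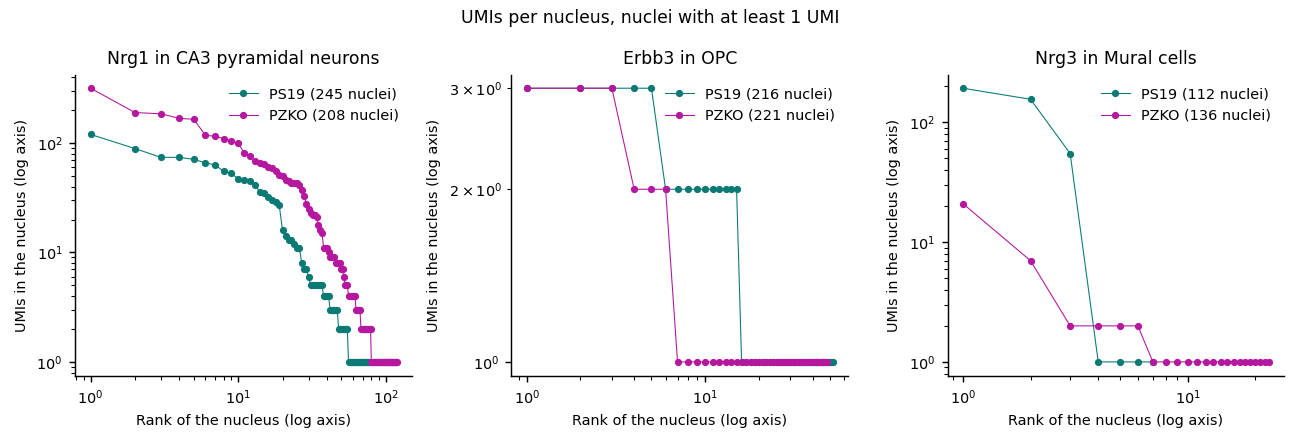
UMIs per nucleus on log axes, with nuclei ranked from the highest, for *Nrg1* in CA3 cells, *Erbb3* in OPC and *Nrg3* in mural cells, in PS19 (green) and PZKO (magenta); nuclei with no UMI are not drawn. The PZKO curve of *Nrg1* lies above the PS19 curve until both reach 1 UMI, *Erbb3* reaches at most 3 UMIs in a nucleus, and 2 PS19 mural nuclei with 193 and 156 UMIs hold most of the *Nrg3* count.

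When all excitatory nuclei were pooled, *Nrg1* was at 1766 CPM in PS19 and 2467 CPM in PZKO, a ratio of 0.48 [0.47, 0.49], under the fold, where 7.13% of genes were past it. The libraries held different mixes of excitatory nuclei. Dentate granule cells made up 36.8% of excitatory nuclei in PS19 and 17.4% in PZKO, while upper-layer neurons made up 11.4% and 20.8% and excitatory neurons with no assigned subtype 14.5% and 24.0%. The latter classes hold more *Nrg1* than granule cells. Each of the 7 classes was then given the same weight in both libraries, its mean share of excitatory UMIs over the libraries. With these weights the pooled ratio of *Nrg1* was 0.08, close to that of most single classes.

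**Figure D3:**
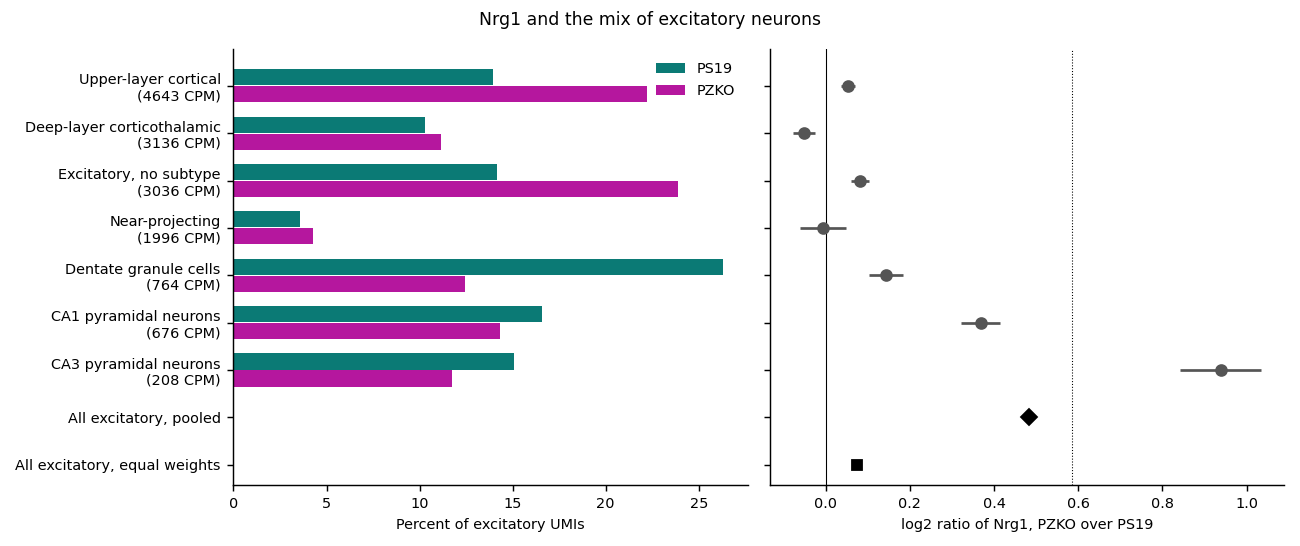
Left, percent of excitatory UMIs held by each of 7 excitatory classes in PS19 (green) and PZKO (magenta), with the mean *Nrg1* level of the class in CPM beside its name. Right, log2 ratio of *Nrg1* (PZKO over PS19) in each class with its exact 95% interval, and for all excitatory nuclei pooled (diamond, 0.48). The square (0.08, labelled equal weights) gives each class the same weight in both libraries, and the dotted line is 1.5-fold.

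Interneurons held less *Nrg1* than cortical-type excitatory neurons, with ratios that differed by subtype. Lhx6 interneurons without Sst had 403 CPM in both PS19 and PZKO. Sst interneurons had 315 and 423 CPM (367 and 1144 UMIs, 0.42 [0.25, 0.60]), under the fold. Adarb2 interneurons had 185 and 316 CPM (382 and 837 UMIs, 0.77 [0.60, 0.95]), past it, beside 5.97% of all genes in that class. There were 106 and 97 Adarb2 nuclei, of which 40 and 45 had a *Nrg1* UMI. The class joined a *Vip* cluster of 58 PS19 and 67 PZKO nuclei and a *Cnr1* cluster of 48 and 30. The part of that mix in the ratio was not tested. The 5 highest nuclei held 45.3% and 40.6% of the *Nrg1* UMIs in Adarb2 cells, and without them the ratio was 0.87 [0.64, 1.11]. Under the 13 alternatives it lay between 0.54, with a stricter filter on nuclei, and 1.77. Pooled over inhibitory neurons, *Nrg1* was at 593 and 687 CPM (0.21 [0.17, 0.26]).

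In glia, *Nrg1* was highest in oligodendrocyte precursors (OPC), at 666 CPM in PS19 and 783 CPM in PZKO (0.23 [0.12, 0.34]). Oligodendrocytes had 13.4 and 15.9 CPM and microglia 12.6 and 16.6 CPM, so that the oligodendrocyte level did not stand above that of microglia, a class not known for *Nrg1*. Astrocytes had 122 and 90.3 CPM, a ratio of -0.43 [-0.56, -0.30]. This was under the fold and lay below the 0.23 median of long genes in astrocytes. The astrocyte clusters differed from each other in this ratio. Ependymal cells, which line the ventricles, had *Nrg1* at 399 and 651 CPM (350 and 501 UMIs, 0.71 [0.51, 0.91]), past the fold in a class with 8.68% of genes past it, and 0.40 with the stricter filter.

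The astrocyte cluster with more *Gfap* and *A2m*, genes of fibrous or reactive astrocytes, held 538 PS19 nuclei and 494 PZKO nuclei and had *Nrg1* at 167 CPM in PS19 and 93.5 CPM in PZKO (759 and 508 UMIs, -0.835 [-1.0, -0.67]). The other astrocyte cluster, with 540 and 671 nuclei, had 63.1 and 87.3 CPM (222 and 492 UMIs, 0.467 [0.24, 0.70]). Between the clusters *Nrg1* differed 2.64-fold [2.27, 3.08] in PS19 and 1.07-fold [0.945, 1.22] in PZKO. The *Gfap* level of the former cluster was 1594 CPM in PS19 and 1325 CPM in PZKO, and that of the latter 585 and 341 CPM. The clusters were found in the same nuclei, and whether the libraries fill them with like cells was not tested.

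*Nrg2*, a neuregulin known from dendrites and synapses of interneurons, was highest in dentate granule cells, at 296 CPM in PS19 and 328 CPM in PZKO (4558 and 3774 UMIs, 0.15 [0.09, 0.21]). Within the hippocampus proper it fell steeply from there, to 49.8 and 59.1 CPM in CA1 and 34.03 and 26.1 CPM in CA3, or 5.73-fold and 10.4-fold below the mean of granule cells. The 4 interneuron classes lay between 125 and 223 CPM. OPC had 164 and 177 CPM and astrocytes 151 and 134 CPM (-0.18 [-0.29, -0.07]), while oligodendrocytes were at 4.74 and 6.63 CPM and microglia at 2.15 and 3.56 CPM. None of the 15 classes with at least 100 *Nrg2* UMIs was past the fold.

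Pooling turned the direction of *Nrg2* in excitatory neurons. The ratio was above 0 in 5 of the 7 excitatory classes, and for all excitatory nuclei together *Nrg2* was at 140 CPM in PS19 and 127 CPM in PZKO, a ratio of -0.14 [-0.18, -0.10]. With the same weight of each class in both libraries the pooled ratio was 0.12. Dentate granule cells, the class with most *Nrg2*, held 37.1% of its UMIs in PS19 and 19.6% in PZKO. Astrocyte clusters also differed in *Nrg2* and did so in both libraries, with 204 CPM in each library in the *Gfap* and *A2m* cluster and 83.3 and 66.0 CPM in the other, or 2.45-fold [2.15, 2.80] in PS19 and 3.09-fold [2.75, 3.49] in PZKO. The genotype ratio of *Nrg2* was under the fold in each cluster.

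*Nrg3*, the ligand of ErbB4 that is largely neural, was high in all 11 neuron classes, between 3376 and 9374 CPM. Near-projecting neurons had the highest level, 8651 CPM in PS19 and 9374 CPM in PZKO (0.12 [0.09, 0.14]). CA3 cells, low in *Nrg1* and *Nrg2*, had 5791 and 6578 CPM of *Nrg3*, above dentate granule cells at 4930 and 5727 CPM and CA1 cells at 4712 and 5283 CPM. Across neurons the *Nrg3* ratio ran from -0.03 in upper-layer neurons to 0.35 in inhibitory neurons with no assigned subtype, all under the fold, with 10 of 11 intervals above 0. The last value was 0.005 with the libraries clustered apart, in a class whose clusters the libraries filled unequally. Genes of at least 500 kb also had a median above 0 in each of the 11 neuron classes. These medians ran from 0.03 in upper-layer neurons to 0.23 in inhibitory neurons with no assigned subtype. How many other genes had intervals above 0 was not counted. OPC, the glial class with most *Nrg3*, had 1323 and 1438 CPM (0.12 [0.04, 0.20]). After thinning, 72.6% and 79.0% of OPC had a UMI of *Nrg3*, beside 4.65% and 6.76% of microglia.

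Mature oligodendrocytes had little *Nrg3*, with 26.5 CPM in PS19 and 52.4 CPM in PZKO from 246 and 545 UMIs, a ratio of 0.98 [0.76, 1.21]. A UMI was found in 219 of 2578 PS19 nuclei and 442 of 2246 PZKO nuclei, or 4.22% and 7.41% after thinning. The ratio was past the fold beside 5.93% of all genes in the class, and it lay between 0.96 and 1.07 under the 12 alternatives that gave a value. The 3 large oligodendrocyte clusters moved alike, with 33.2 and 75.1, 21.1 and 46.7, and 22.4 and 44.1 CPM. Microglia, at 29.5 and 43.9 CPM (0.58 [0.20, 0.96]), and astrocytes, at 22.7 and 41.7 CPM (183 and 462 UMIs, 0.88 [0.63, 1.13]), had levels of the same size, and so had endothelial cells, at 31.5 and 52.7 CPM (35 and 69 UMIs, 0.74 [0.14, 1.38]). The oligodendrocyte level and share were thus close to those of microglia. Subtracting each library's own profile, as an estimate of free RNA, left no *Nrg3* above 0 in any of these classes. The share subtracted was 22.5% in PS19 and 22.1% in PZKO oligodendrocytes, and 40.5% and 51.8% in endothelial cells. It held more *Nrg3* than these classes did, so the subtraction could not leave a value and does not measure their free RNA. That alternative therefore gave no ratio for them, and the part of free RNA in these values was not tested further. The astrocyte and endothelial ratios were past the fold, in classes where 6.83% and 4.67% of genes were past it, and the astrocyte ratio was 0.49 without removal of doublets.

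Large differences of *Nrg1*, *Nrg3* and *Erbb4* in vascular cells rested on a few nuclei. In mural cells, the contractile cells of vessel walls, *Nrg3* was at 1042 CPM in PS19 and 109 CPM in PZKO (408 and 53 UMIs, -3.25 [-3.69, -2.84]), and 5 of 112 PS19 nuclei held 406 of the 408 UMIs. *Nrg1* was at 363 and 101 CPM there (142 and 49 UMIs, -1.84 [-2.34, -1.37]), and 2 PS19 nuclei held 69 and 68 of the 142 UMIs. Without the 5 highest nuclei per library the mural ratios changed sign, to 2.73 for *Nrg3* and 2.37 for *Nrg1*. Markers of excitatory neurons were lower in PZKO mural cells (-0.73 [-1.06, -0.41]), with none at 0 in either library, and their part was not tested. *Erbb4* was higher in PZKO mural cells, at 112 and 227 CPM (44 and 110 UMIs, 1.01 [0.50, 1.55]). The 5 highest nuclei held 84.1% of these UMIs in PS19 and 86.4% in PZKO, and the ratio lay between 0.49 and 4.76 under the alternatives. In mural cells 18.1% of all genes were past the fold, and of 147 long genes 71 were lower and 16 higher past it, whose part in the ratios of *Nrg1* and *Nrg3* was not tested.

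In vascular leptomeningeal cells (VLMC), fibroblast-like cells of the meninges and vessels, *Erbb4* was at 614 CPM in PS19 and 88.1 CPM in PZKO (341 and 112 UMIs, -2.80 [-3.12, -2.49]). A single PS19 nucleus held 301 of the 341 UMIs, and without the 5 highest nuclei per library the levels were 14.4 and 17.9 CPM. *Nrg3* was at 211 and 44.8 CPM in VLMC (117 and 57 UMIs, -2.23 [-2.71, -1.76]), with 69 of the 117 PS19 UMIs in 1 nucleus and a ratio of 0.63 without the 5 highest. There were 113 and 194 VLMC nuclei, and their own markers were at 1234 and 1209 CPM. In VLMC 14.0% of all genes were past the fold, and long genes in this class had a median of -0.05 and 41 of 155 lower past the fold.

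Among the 20 classes with at least 50 nuclei per library, *Egfr*, the receptor of EGF and TGF-alpha, was highest in VLMC. It was at 344 CPM in PS19 and 423 CPM in PZKO there (191 and 538 UMIs, 0.30 [0.06, 0.55]). The VLMC ratio passed the fold at 0.87 with a stricter filter on nuclei and 0.77 without removal of doublets. Astrocytes had 293 and 370 CPM from 2361 and 4098 UMIs (0.34 [0.27, 0.41]), and their range overlapped that of VLMC. Both astrocyte clusters had a ratio above 0, at 344 and 436 CPM in the *Gfap*-poor cluster and 253 and 302 CPM in the *Gfap* and *A2m* cluster. Before thinning, 71.9% and 81.1% of astrocytes and 0.95% and 0.79% of microglia had an *Egfr* UMI, and after it 33.1% and 36.9% of astrocytes and 0.66% and 0.41% of microglia. Median UMIs were 6906.5 and 8950 in astrocytes and 3306.5 and 4171 in microglia.

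Among neurons, *Egfr* was a gene of interneuron subtypes. Adarb2 interneurons had 154 CPM in PS19 and 210 CPM in PZKO (0.45 [0.25, 0.65]), while excitatory classes lay between 0.679 and 11.2 CPM, the highest in dentate granule cells at 8.10 and 11.2 CPM. Lamp5 interneurons, with 35 and 36 nuclei and so outside the 20 classes, had 680 and 901 CPM, above the VLMC level. OPC had 1.97 and 3.36 CPM and oligodendrocytes 2.58 and 2.88 CPM, at the level of microglia, 3.07 and 1.78 CPM. None of the 6 classes with at least 100 *Egfr* UMIs was past the fold.

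*Erbb3*, the receptor with little kinase activity, was mainly a gene of the oligodendrocyte lineage. Oligodendrocytes had 64.4 CPM in PS19 and 74.5 CPM in PZKO from 598 and 775 UMIs (0.21 [0.05, 0.37]). After thinning, 8.56% and 10.3% of oligodendrocytes had an *Erbb3* UMI, beside 0.33% and 0.41% of microglia of like depth. The 2 large clusters with less *Anln* had 57.6 and 72.9 CPM and 70.5 and 76.5 CPM, and the *Anln* and *Hapln2* cluster, which carries genes of later myelin, had 68.9 and 70.9 CPM. *Erbb3* was thus about level over these clusters, with folds from 0.836 to 1.08 over the *Anln* cluster. Ependymal cells had 4.56 and 9.10 CPM from 4 and 7 UMIs, and no other class exceeded 2.55 CPM.

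In OPC, *Erbb3* was at 47.3 CPM [37.0, 59.5] in PS19 and 23.9 CPM [18.1, 31.0] in PZKO, from 72 and 57 UMIs, a ratio of -0.98 [-1.51, -0.46] past the fold. No other of the 6 genes was past the fold in OPC, where 8.42% of all genes were. The count was spread over many nuclei, with a UMI in 52 of 216 OPC of PS19, in 48 of 221 OPC of PZKO and at most 3 UMIs in a nucleus, and the ratio lay between -1.02 and -0.86 under the 13 alternatives. The share of nuclei with a UMI was 24.1% and 21.7% as counted and 7.91% and 2.74% after thinning, since PZKO nuclei of this class were deeper (median 6942.5 and 10317 UMIs). Thinning was a single random draw, and the thinned shares rest on few nuclei. Genes under 20 kb, a group that leaves out *Erbb3* at 22.1 kb, had a median ratio of -0.24 in OPC. Markers of newly formed oligodendrocytes were at 1910 CPM in PS19 and 3517 CPM in PZKO in the same class (0.88 [0.82, 0.94], 7 of 7 higher), while OPC markers were at 20068 and 19060 CPM. The part of these differences in the *Erbb3* ratio was not tested.

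**Figure D4:**
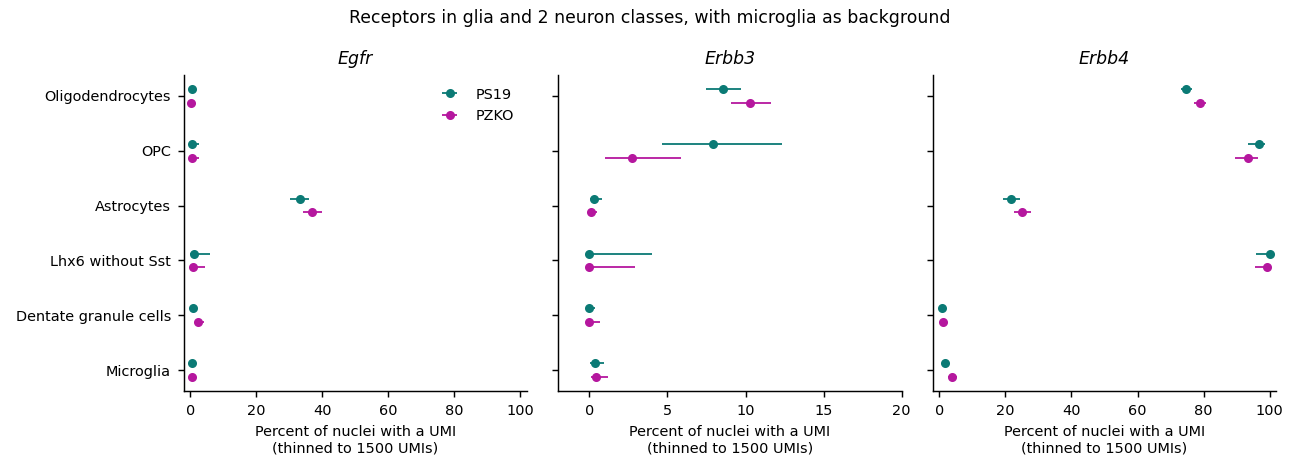
Percent of nuclei with at least 1 UMI of *Egfr*, *Erbb3* or *Erbb4* after each nucleus was thinned to 1500 UMIs, in 6 classes of PS19 (green) and PZKO (magenta), with exact 95% binomial intervals; the horizontal axis of *Erbb3* is shorter. Microglia give the background share, and *Erbb3* in OPC stands at 7.91% in PS19 and 2.74% in PZKO.

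*Erbb4*, the receptor of all 3 neuregulins, was highest in Lhx6 interneurons without Sst, at 9823 CPM in PS19 and 11611 CPM in PZKO (19892 and 45388 UMIs, 0.24 [0.22, 0.27]). Adarb2 interneurons had 6310 and 7348 CPM, inhibitory neurons with no assigned subtype 4667 and 3944 CPM, and Lamp5 interneurons 9711 and 10141 CPM. The class with no assigned subtype joined 7 clusters that the libraries filled unequally, among them a *Glra3* and *Chrm2* cluster of 16 PS19 and 56 PZKO nuclei, a *Drd2* and *Penk* cluster of 24 and 2 and a *Meis2* and *Pbx3* cluster of 13 and 0. Its *Erbb4* ratio of -0.24 [-0.27, -0.22] was 0.04 with the stricter filter, and in its 3 largest clusters the ratio was -0.63, 0.29 and -0.10. Sst interneurons stood apart from the other interneurons at 788 and 1230 CPM, below OPC and oligodendrocytes. After thinning, 100% and 99.2% of Lhx6 nuclei had an *Erbb4* UMI, against 39.7% and 48.9% of Sst nuclei. Pooled over all inhibitory neurons *Erbb4* was at 5748 and 5790 CPM (0.01), where 7.0% of genes were past the fold.

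The Sst ratio of *Erbb4*, 0.64 [0.54, 0.75] from 917 and 3327 UMIs, was past the fold, beside 6.69% of genes in Sst cells. In PS19 5 of 58 nuclei held 54.3% of these UMIs and in PZKO 5 of 92 held 43.0%, and without them the ratio was 0.95. It was -0.58 with the libraries clustered apart and 0.19 with the stricter filter, and 8 of 13 alternatives kept it past the fold. Those 8 include the alternatives on the minimum UMIs, which cannot change the ratio. Excitatory neurons had 12.3 and 12.2 CPM of *Erbb4*, less than microglia at 18.4 and 37.7 CPM, and 1.02% and 1.37% of them had a UMI after thinning, beside 1.77% and 3.78% of microglia. The *Erbb4* level of excitatory neurons was thus at or below that of microglia.

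In glia, *Erbb4* followed the oligodendrocyte lineage. OPC had 2793 CPM in PS19 and 2924 CPM in PZKO (0.07 [0.01, 0.12]) and oligodendrocytes 1473 and 1757 CPM (13682 and 18277 UMIs, 0.25 [0.22, 0.29]), beside a median of 0.22 for long genes in that class. The cluster with least *Anln* had 1719 and 2065 CPM (0.26 [0.21, 0.32], 1258 and 666 nuclei) and the second large cluster 1754 and 1954 CPM (0.16 [0.11, 0.20], 713 and 1209 nuclei), while the *Anln* and *Hapln2* cluster had 712 and 738 CPM (0.05 [-0.05, 0.16], 595 and 347 nuclei). The libraries thus filled these clusters differently, and the part of that mix in the class ratio was not tested. The folds over the *Anln* cluster were 2.41 to 2.80 in both libraries, in contrast to the level *Erbb3*. Astrocytes had 295 and 396 CPM (2382 and 4385 UMIs, 0.42 [0.35, 0.50]), under the fold, with a UMI in 21.8% and 25.1% of nuclei after thinning. Their *Gfap*-poor cluster held more *Erbb4* than the *Gfap* and *A2m* cluster, 1.82-fold in PS19 and 1.70-fold in PZKO. Outside these lineages, choroid plexus cells had 1877 and 1944 CPM (0.05 [-0.02, 0.12]) and ependymal cells 422 and 547 CPM (0.38 [0.17, 0.58]).

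The *Erbb4* ratios past the fold in excitatory classes stood at low levels and went both ways. CA1 cells had 23.3 CPM in PS19 and 10.3 CPM in PZKO (227 and 136 UMIs, -1.19 [-1.50, -0.87]), with 111 of the PS19 UMIs in 1 nucleus, and 4.48 and 6.32 CPM without the 5 highest nuclei. Upper-layer neurons had 16.6 and 10.7 CPM (-0.63 [-0.95, -0.31], beside 4.89% of genes past the fold), with 66.9% of the PS19 UMIs in 5 nuclei and 5.61 and 7.54 CPM without them. Dentate granule cells had 6.35 and 20.5 CPM (1.69 [1.34, 2.05]), with 100 of the 236 PZKO UMIs in 1 nucleus, 3.93 and 6.48 CPM without the 5 highest nuclei and a ratio of 0.53 without removal of doublets, and CA3 cells 7.03 and 14.3 CPM (1.03 [0.59, 1.48]). Excitatory neurons with no assigned subtype had 12.2 and 8.22 CPM (-0.57 [-0.93, -0.20]), just under the fold, with 82.2% of the PS19 UMIs in 5 nuclei and a ratio of 1.38 without the 5 highest, and none of the 6 genes was past it there, beside 5.84% of genes. Microglia themselves had a ratio of 1.03 [0.58, 1.5] for *Erbb4* beside 5.72% of genes.

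Of 120 combinations of gene and class, 75 had at least 100 UMIs, and 18 of these were past the fold, 11 higher and 7 lower in PZKO. Over all genes and the 20 classes, 6.33% of such combinations were past the fold, 2.15% higher and 4.18% lower. *Nrg1* had 4 such values, *Nrg3* 5, *Erbb4* 8, *Erbb3* 1, and *Nrg2* and *Egfr* none. Thus 17 of 18 belonged to the 3 genes over 1000 kb, which also made up 52 of the 75 combinations. Among all genes of at least 500 kb the share higher was larger, with 8.22% higher and 4.11% lower. In 11 of the 18 cases 5 nuclei held at least 50% of the UMIs of 1 library, and 12 of 18 kept their direction and the fold without the 5 nuclei. In the class of these 20 where each gene was highest, the log2 ratio lay between 0.05 and 0.30 for all 6 genes.

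**Figure D5:**
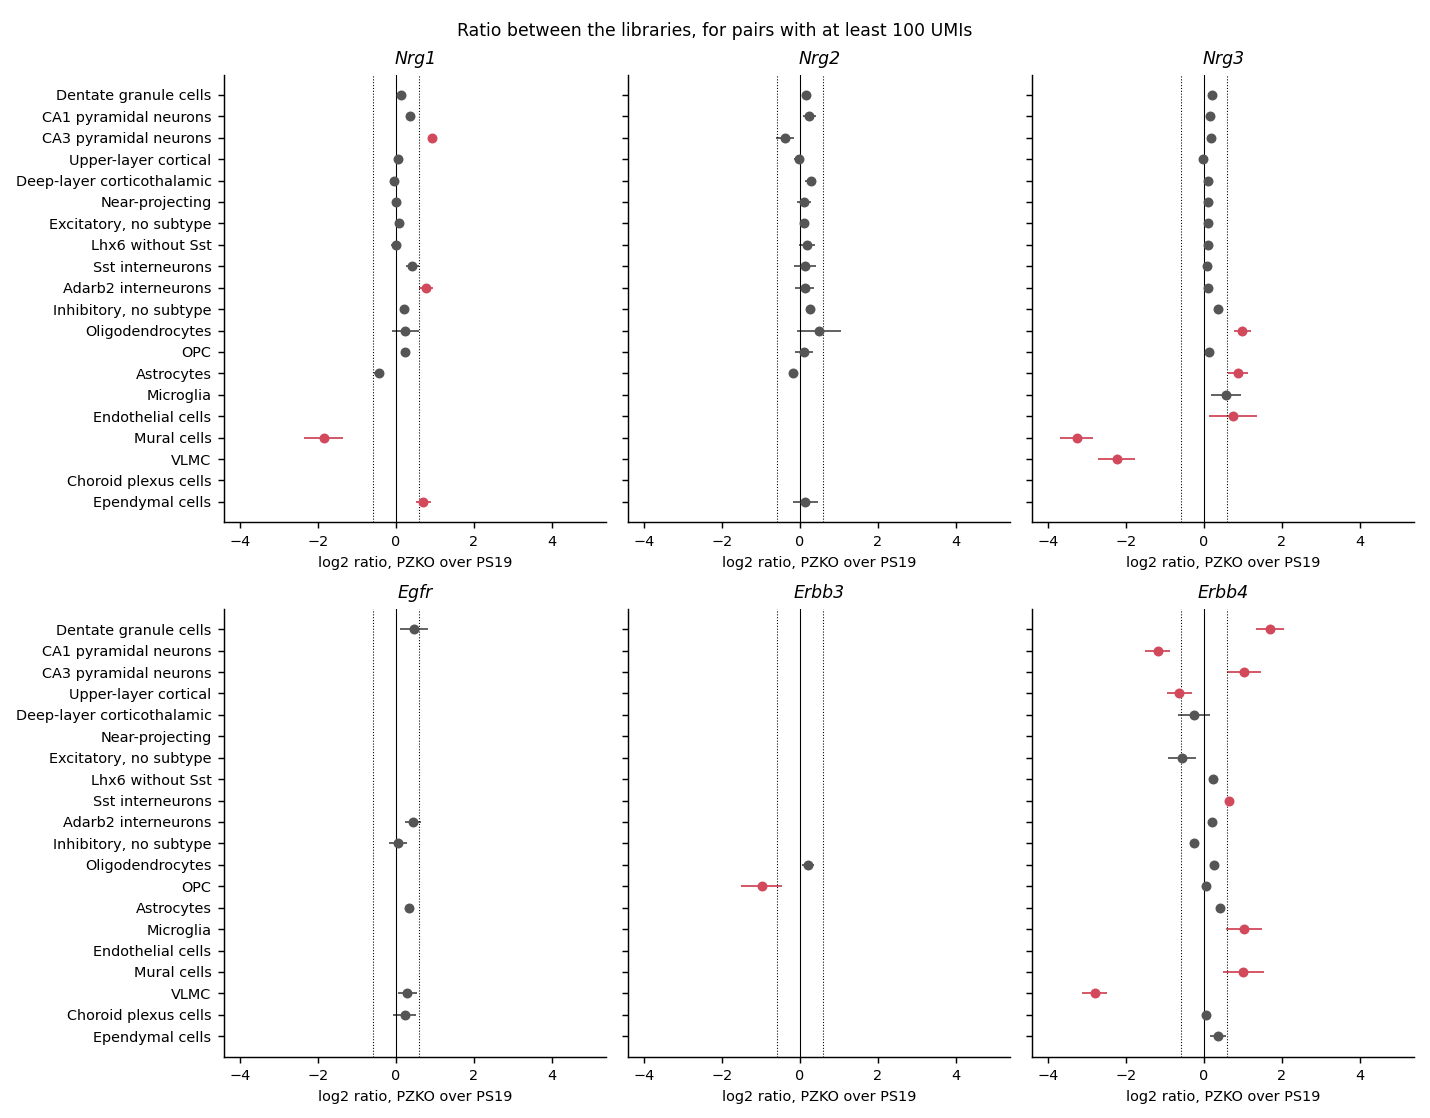
Log2 ratio of PZKO over PS19 with its exact 95% interval, for the 75 combinations of gene and class with at least 100 UMIs. Dotted lines are 1.5-fold in either direction, and the 18 values past it (red) lie mainly in the panels of *Nrg1*, *Nrg3* and *Erbb4* and in classes of low level or few nuclei.

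The other genes of the pathway, 48 in 5 lists of ligands, *Erbb2*, proteases, adaptors and kinases, and inhibitors or partners, were read in 5 classes. In oligodendrocytes 38 had at least 100 UMIs, of which 0 were higher and 1 lower past the fold, with a median ratio of 0.003, beside 5.93% of all genes past the fold. In astrocytes it was 39, 1 and 1 (median 0.017, all genes 6.83%), in OPC 30, 1 and 0 (-0.014, 8.42%), in excitatory neurons 44, 2 and 1 (0.002, 7.13%) and in inhibitory neurons 41, 0 and 2 (-0.015, 7.0%). These counts were no larger than the shares of all genes. Outside those classes, mural cells had 4 of 13 higher and 0 lower past the fold, beside 9.01% of all genes higher and 9.12% lower. *Erbb2*, the usual partner of ErbB3, had 85 UMIs in all PS19 nuclei and 95 in PZKO, 45 and 52 of them in astrocytes, 6 and 1 in oligodendrocytes and 0 and 0 in OPC, too few for a ratio in any class. Over all nuclei, whose mix of classes differed between the libraries, its ratio was -0.44, under the fold.

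*Spry2*, an inhibitor of signals from receptor tyrosine kinases, was lower past the fold in 3 of the 5 classes. *Spry2* was at 19.4 CPM in PS19 and 10.1 CPM in PZKO in oligodendrocytes (180 and 105 UMIs, -0.94 [-1.30, -0.59]). In astrocytes *Spry2* was at 113 and 71.2 CPM (-0.67 [-0.81, -0.53]) and in inhibitory neurons at 24.9 and 14.9 CPM (-0.74 [-0.98, -0.50]). Of all genes in oligodendrocytes, astrocytes and inhibitory neurons, 4.88%, 5.57% and 4.36% were lower past the fold and 1.05%, 1.26% and 2.63% higher. Its relative *Spry1* was at 2.58 and 1.43 CPM in excitatory neurons (-0.85 [-1.19, -0.50]). Genes under 20 kb had a median ratio of -0.19 in oligodendrocytes, -0.23 in astrocytes, -0.20 in inhibitory neurons and -0.18 in excitatory neurons. The part of gene length in the *Spry1* and *Spry2* ratios was not tested, nor that of the mix of neuron subtypes in the pooled neuron ratios.

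Among the ligands of EGFR, *Tgfa* was at 8.92 and 13.5 CPM in astrocytes (72 and 149 UMIs, 0.59 [0.18, 1.02]) and at 8.44 and 4.32 CPM in inhibitory neurons (95 and 88 UMIs, -0.96 [-1.40, -0.53]). *Btc* had 29 and 77 UMIs in excitatory neurons (0.75 [0.11, 1.42]). *Bace2*, a relative of the protease that cleaves NRG1, was at 4.88 and 7.50 CPM in excitatory neurons (0.62 [0.42, 0.82]). The libraries differed in their mix of neuron subtypes, whose part in the pooled neuron ratios of *Tgfa*, *Btc* and *Bace2* was not tested. *Pik3r3*, a regulatory subunit of phosphoinositide 3-kinase, was at 76.8 and 387 CPM in OPC (117 and 922 UMIs, 2.33 [2.05, 2.62]), and 5 PZKO nuclei held 74.5% of its UMIs there. Without the 5 highest nuclei per library *Pik3r3* was at 63.8 and 103 CPM (0.69 [0.34, 1.05]), and *Erbb3* in the same remaining nuclei was at 46.2 and 24.2 CPM. Those 5 PZKO nuclei had markers of newly formed oligodendrocytes at 14995 CPM, against 2992 CPM in the remaining PZKO nuclei of the class.

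Likeness to each gene was measured as Pearson r of log2(CPM + 1) over 40 points, the 20 classes in both libraries, which share libraries and depth. Among the closest to *Nrg1* were *Csmd1* (0.917) and *D430041D05Rik* (0.900), and closest to *Nrg3* were its overlapping antisense *Nrg3os* (0.994), *Srrm3* (0.990) and *Myt1l* (0.988). Closest to *Nrg2* were *Fmn2* (0.926), *4930570G19Rik* (0.926) and *Gm5577* (0.907). Among receptors, *Erbb3* was most like *Plxnb3* (0.924), *Bcas1* (0.884) and *Gm16168* (0.880), *Erbb4* most like *Sox2ot* (0.892), *Dusp10* (0.875) and *Btbd11* (0.842), and among the genes most like *Egfr* were *Gm29683* (0.866) and *Ogt* (0.815). Between the genes themselves *Nrg1* had an r of 0.82 with *Nrg2* and 0.79 with *Nrg3*, while *Erbb3* with *Erbb4* and *Egfr* with *Erbb4* each had 0.42.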

How the data were processed

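The authors deposited UMI counts per gene and nucleus from 10x Genomics 3′ single-nucleus RNA sequencing of hippocampus, as whole numbers without normalization. The submitters' processing notes name Cell Ranger 7.0.1, mm10 and Seurat, while the header of the count matrices names Cell Ranger 8.0.1. The ambient RNA correction, nucleus filter and doublet removal of the study's methods are not part of the deposited counts. The labels call each library pooled. The methods state both that animals were processed separately and that 5 males were pooled per genotype, and the counts carry no label for the animal.

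The libraries held 11469 PS19 and 10920 PZKO barcodes with 116488513 and 171167884 UMIs, and shared 47 barcodes. Nuclei with at least 600 UMIs, 300 genes and at most 5% mitochondrial UMIs were kept, and those with the highest doublet scores, computed with the published Scrublet formula, were removed at 0.8% per 1000 nuclei. Both libraries were clustered together (leidenalg 0.10.2, 2000 variable genes chosen with scanpy 1.11.5 without the genes described, 30 components, 20 neighbours, resolution 1). Of 41 clusters 36 were named from at least 3 detected markers, with thresholds set after the clusters were seen, and 485 PS19 and 420 PZKO nuclei stayed unnamed. The genes, lists and markers were chosen with earlier results of these data known.

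UMIs were summed per class and library. Ratios have exact Clopper-Pearson intervals, levels exact Poisson intervals and shares exact binomial intervals at 95%, all for counting error only. Every gene described was reported, along with each listed pathway gene past 1.5-fold on at least 100 UMIs and the 3 genes most alike, of which some are not reported here. Gene positions come from GENCODE M21. The computation of the interval was checked on class sums simulated as Poisson draws, the model behind the interval, without spread between nuclei or libraries. Coverage near 95% was therefore built in and does not bear on counts that gather in a few nuclei. The interval held the true ratio for 96% of 200 changed genes among 10716 in oligodendrocytes, 97% among 6094 in OPC, 94% among 11817 in astrocytes, 95.5% among 15927 in excitatory neurons and 93.5% among 12647 in inhibitory neurons. The alternatives covered scaling (edgeR 4.0.16, DESeq2 1.42.0), the mean over nuclei, the minimum UMIs, free RNA, filters, doublets, clustering and the weights of neuron subtypes. A change of the minimum UMIs can alter counts of combinations but no single ratio.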

Additional observations from a re-analysis of the deposited data

Results flagged for a closer look

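The log2 ratio of *Nrg1* in mural cells was -1.84, while it was above 0 with its whole interval in 10 other classes, so the direction differed between classes with all nuclei counted. *Nrg3* in mural cells, at -3.25, and in VLMC, at -2.23, went against 15 classes with intervals above 0. *Erbb3* was at -0.982 in OPC and above 0 in 1 class, oligodendrocytes. *Erbb4* was at -0.632 in upper-layer cortical neurons, -1.19 in CA1 cells and -2.80 in VLMC, against 11 classes with intervals above 0. Without the 5 nuclei with most UMIs per library, these mural, VLMC, upper-layer and CA1 ratios all changed sign, so their direction rested on a few nuclei. *Erbb3* in OPC kept its sign. *Nrg1* went opposite ways in the astrocyte clusters, at 0.467 in the *Gfap*-poor cluster and -0.835 in the *Gfap* and *A2m* cluster. With 1 library per genotype, none of these differences between classes was tested.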

How the results depend on the processing

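No paired analysis was possible because each genotype had 1 library. In the class of the 20 where each gene was highest, the direction was above 0 in every alternative that gave a value except *Nrg1* in upper-layer neurons, at -0.031 with the stricter filter (0.05 as reported). Only *Egfr* in VLMC (0.30 as reported) passed the fold there, at 0.87 with that filter and 0.77 without doublet removal. The other values there that moved beyond their interval were *Nrg1* 0.071, *Nrg2* 0.23, *Nrg3* 0.19 and *Erbb4* 0.29 with TMM factors; 0.074, 0.24, 0.18 and 0.28 with DESeq2 size factors; *Nrg1* 0.072 and *Erbb4* 0.32 as a mean over nuclei; *Nrg3* 0.16 and *Erbb4* 0.27 with the library profile subtracted; *Nrg3* 0.072 with the stricter filter; *Nrg1* 0.073 without doublet removal; *Erbb4* 0.13 with libraries clustered apart; *Nrg3* 0.089 with the genes kept for clustering; and *Nrg1* 0.032 at resolution 0.5. Without the 5 nuclei with most UMIs per library, an alternative chosen after seeing the data, they were *Nrg1* 0.10, *Nrg3* 0.15 and *Erbb4* 0.28. Clustering the libraries apart gave no value for *Nrg1* and *Nrg3* in these classes, nor did resolution 0.5 and no doublet removal for *Nrg3*.

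The count of combinations past the fold, 18 (11 higher, 7 lower), was 50 (34 and 16) with no minimum on UMIs, 8 (6 and 2) with a minimum of 400, and 5 (3 and 2) with the profile subtracted. With the profile subtracted only 58 of 79 ratios had a value. Of these, 5 had been past the fold as reported, and 3 of them stayed past it. Lower ones were 4 with the stricter filter, 4 with no filter, 3 without doublet removal and 1 without the 5 nuclei, where 19 were higher. Directions turned in mural cells for *Nrg1* and *Nrg3* with the stricter filter (0.40 and 1.68), no filter (2.70 and 3.07), no doublet removal (2.91 and 2.65), libraries clustered apart (2.61 and 3.05) and without the 5 nuclei (2.37 and 2.73). They also turned for *Erbb4* in VLMC with no filter (0.23), at resolution 0.5 (0.24) and without the 5 nuclei (0.32), in upper-layer neurons without doublet removal (0.54) and without the 5 nuclei (0.43), in CA1 without the 5 nuclei (0.50) and in Sst cells with libraries clustered apart (-0.58), and for *Nrg3* in VLMC without the 5 nuclei (0.63). *Erbb4* in excitatory neurons with no assigned subtype, under the fold as reported, turned to 0.28 as a mean over nuclei, 0.81 without doublet removal and 1.38 without the 5 nuclei. The causes were not tested. *Erbb3* in OPC rests on 72 and 57 UMIs.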

Other observations

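Classes under 50 nuclei per library held the genes as well. Cajal-Retzius cells, early-born neurons of the molecular layers with 28 PS19 and 29 PZKO nuclei, had *Nrg1* at 2592 and 2895 CPM (395 and 629 UMIs) and *Nrg3* at 4036 and 4174 CPM, but *Erbb4* from 2 UMIs in each library and *Egfr* and *Erbb3* at a count of 0. Lamp5 interneurons had *Nrg1* at 949 and 639 CPM (539 and 611 UMIs, -0.57 [-0.74, -0.40]) and *Nrg2* at 250 and 301 CPM. Choroid plexus cells, with 263 and 98 nuclei a larger class, had 255 and 165 UMIs of *Egfr* beside their *Erbb4*, and 31 and 31 UMIs of *Nrg3*.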
